A study of Mus musculus with 6 samples.

Results

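The formyl peptide receptor genes Fpr1 (Entrez 14293) and Fpr2 (Entrez 14289) are 2 of the 24454 genes measured by RNA sequencing in mouse leukaemic blasts, found by matching the Entrez identifiers to symbols. They were chosen by their normalized counts in these same libraries, which an earlier look had found higher in 1 of the 2 groups, so that difference is described here and not tested. The study concerns leukaemia caused by the MLL-AF9 fusion and the STAT3 isoform Stat3β, which lacks the C-terminal end of the full-length factor. Fetal liver cells on a C57BL/6 background, either from wild-type littermates (WT, 3 libraries) or carrying Mx1-Cre recombinase and the Stat3β transgene (Stat3β TG, 3 libraries), were transformed with an MLL-AF9 retrovirus and injected into NSG mice, an immunodeficient strain without T, B and NK cells of its own. The transplanted mice received poly(I:C), the RNA mimic that switches on Mx1-Cre and with it the transgene, at week 4. At week 6 the blasts, marked by the reporter Venus, were sorted from the bone marrow of leukaemic mice. All libraries thus share the retroviral oncogene and the NSG host. The Mx1 promoter answers to interferon in many cell types, so recombination need not be limited to one kind of blast. Recombination was not measured here. Whether the replicates came from separate donors or recipients is not given in the labels. Sex-linked genes, described below, show only that WT 2 came from other donor cells than WT 1 and WT 3. The spread given here is therefore between samples and may in part be technical.

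Formyl peptide receptors are G protein-coupled receptors of neutrophils, monocytes and macrophages. They sense peptides that begin with formyl-methionine, which bacteria and mitochondria use to start protein synthesis, and through inhibitory G proteins they trigger chemotaxis, release of granules and the oxidative burst. FPR1 is the classical high-affinity receptor for such peptides, while FPR2 also binds host proteins such as annexin A1, serum amyloid A and cathelicidin. In mice the family has been enlarged by duplication, and several copies are known from sensory neurons of the vomeronasal organ rather than from blood cells.

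The genes lie side by side on chromosome 17 and point away from each other. Fpr1 spans 17876471 to 17883939 on the minus strand and Fpr2 spans 17887824 to 17893952 on the plus strand (GRCm38), so their annotated starts are 3885 bases apart, with no other gene of the table between them. The longest coding sequence of each is held in 1 exon of a 2-exon transcript, with 1095 bases for Fpr1 and 1056 bases for Fpr2 (GENCODE M21). A second coding transcript of Fpr2 has 3 exons, 2 of them coding, and 147 coding bases. Levels of Fpr2 per kb of exon, given below, use 1296 bases, more than the 1133 of its 2-exon transcript. The 250 bases upstream of each start are printed from RefSeq (GRCm38.p6) because the members of this divergent pair were both higher in the same libraries. Capitals mark matches, on either strand, to 4 short motifs: TTCNNNGAA (the palindrome bound by STAT factors), GAGGAA (a core bound by PU.1 and other ETS factors), TTGCNNAA (a part of the C/EBP site) and TATAAA (the TATA box).
Fpr1, chr17:17883940-17884189, minus strand: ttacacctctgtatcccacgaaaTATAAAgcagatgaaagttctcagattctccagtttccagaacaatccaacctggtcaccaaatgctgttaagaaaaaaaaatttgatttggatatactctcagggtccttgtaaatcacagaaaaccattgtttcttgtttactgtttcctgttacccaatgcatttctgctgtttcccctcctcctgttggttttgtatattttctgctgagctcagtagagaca
Fpr2, chr17:17887574-17887823, plus strand: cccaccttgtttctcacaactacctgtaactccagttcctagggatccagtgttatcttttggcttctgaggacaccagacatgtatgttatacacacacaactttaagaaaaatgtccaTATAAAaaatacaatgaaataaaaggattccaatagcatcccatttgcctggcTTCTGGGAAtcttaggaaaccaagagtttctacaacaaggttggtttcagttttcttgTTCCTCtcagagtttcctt
The STAT palindrome was found upstream of Fpr2, as TTCTGGGAA at positions -77 to -69 from the start, and was not found in the Fpr1 window. The ETS core was likewise found upstream of Fpr2 alone, at -19 to -14 on the opposite strand. TATAAA was present in both windows, at -227 to -222 for Fpr1 and at -130 to -125 for Fpr2, and the C/EBP letters were in neither. None of the matches overlapped another. Of 32536 promoter windows of this length, 7.04% held TTCNNNGAA, 23.4% held GAGGAA, 9.57% held TTGCNNAA and 12.3% held TATAAA. A match is a description of letters and not evidence of binding. Both windows were low in G and C (38.4% for Fpr1 and 38.8% for Fpr2, against a median of 52.4% over all windows).

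Fpr1 stood at 192, 86.6 and 131 normalized counts in WT 1 to 3 and at 831, 648 and 311 in Stat3β TG 1 to 3. The 3 Stat3β TG libraries all lay above the 3 WT libraries, but they differed among themselves 2.67-fold, and the lowest of them, Stat3β TG 3, was 1.62-fold above the highest WT library. The group means were 136 ± 52.7 and 596 ± 264 (SD, n = 3 each), and limma on log2(normalized count + 1) put Stat3β TG above WT by a log2 fold change of 2.08 (SE 0.44). Since the value of TG 3 rested on 553 reads, with an exact Poisson 95% interval of 285 to 338 normalized counts against 593 to 705 for TG 2, the spread of Fpr1 within the group was wider than counting error, the only error these intervals cover.

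Fpr2 stood at 359, 310 and 253 normalized counts in WT 1 to 3 and at 1165, 1012 and 1052 in Stat3β TG 1 to 3. The groups again did not overlap, and here the lowest Stat3β TG library was 2.82-fold above the highest WT library. Within the Stat3β TG group the highest library exceeded the lowest only 1.15-fold, and within WT 1.42-fold. The means were 307 ± 53.0 and 1076 ± 79.0 (SD, n = 3 each), a log2 fold change of 1.82 (SE 0.21). Between 180 and 1873 reads lay behind each Fpr2 value, and between 64 and 1241 behind each Fpr1 value.

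**Figure D1:**
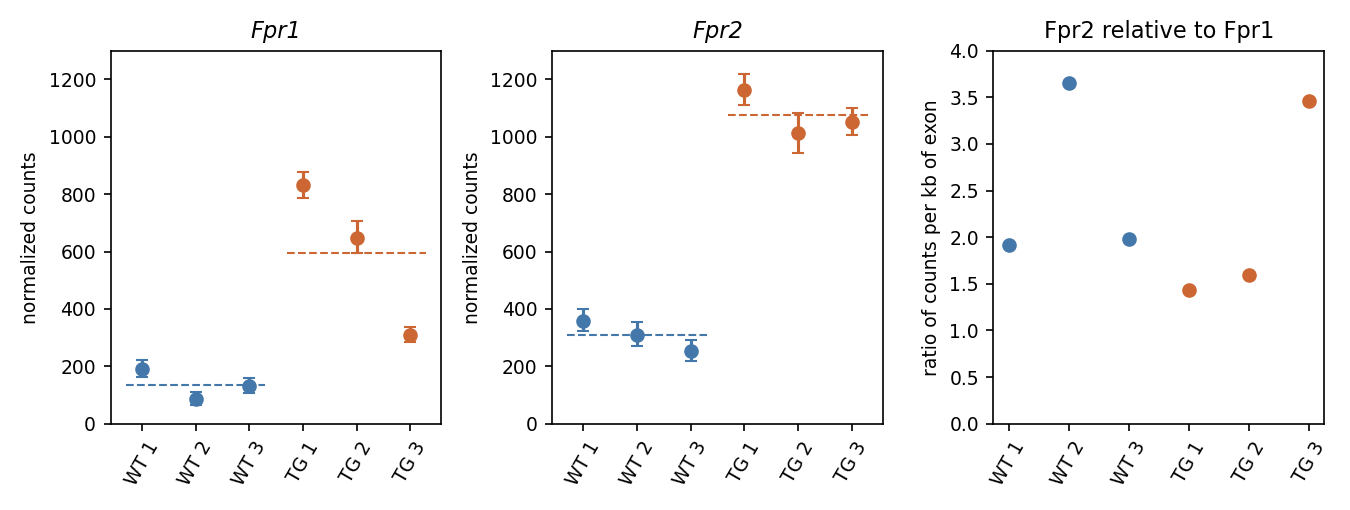
Normalized counts of Fpr1 and Fpr2 in each WT (blue) and Stat3β TG (orange, TG) library, with exact Poisson 95% intervals as bars and group means as dashed lines, and at right the ratio of Fpr2 to Fpr1 per kb of exon. The groups do not overlap for either gene, Fpr1 in TG 3 (311) lies well below TG 1 (831), and the ratio is highest in WT 2 (3.66) and TG 3 (3.46).

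As background for these descriptions, limma passed 0 of 12642 tested genes at an adjusted p under 0.05 (0%). At an unadjusted p under 0.05 it had 771 genes (6.1%), 3.56% higher and 2.54% lower in Stat3β TG. On the recovered reads edgeR passed 0 genes (0%; 777 unadjusted) and DESeq2 passed 17 of 12624 (0.135%, with 0.0713% higher; 970 unadjusted). The groups did not overlap in 10.8% of tested genes, in 5.87% with Stat3β TG higher and in 4.92% with Stat3β TG lower. A log2 fold change of at least 1.5, which both receptors exceeded, was seen in 1.53% of tested genes, and one of at least 1 in 4.36%. These shares place the receptors in the table and add no support, because the same contrast was used to choose them.

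The 2 receptors differed in how steady they were. The SD within groups on the log2 scale was 0.66 for Fpr1, at the 82.3 percentile of all tested genes, and 0.19 for Fpr2, at the 24.8 percentile, beside a median of 0.30. Per kb of exon, Fpr2 was above Fpr1 in every library, at 1.92, 3.66 and 1.98 times its level in WT 1 to 3 and 1.43, 1.60 and 3.46 times in Stat3β TG 1 to 3. TG 1 and TG 2 lay below every WT library, and the groups overlapped through TG 3 alone. The high ratios of WT 2 and TG 3 came with the lowest Fpr1 value of each group. Without WT 2 the difference between groups in the log2 ratio turned from -0.26 to 0.037. The summed normalized counts of both genes ran from 384 to 551 in WT and from 1363 to 1995 in Stat3β TG.

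The libraries do not form compact groups, which touches both receptors. On the first principal component (47.4% of the variance) WT 1 lay at -38.3, beside the Stat3β TG libraries at -31.4 to -16.3, while WT 2 and WT 3 lay at 64.4 and 49.7. WT 1 had the highest WT value of each receptor, but below every Stat3β TG library. Sex-linked genes split the libraries differently. WT 1 and WT 3 had 42699 and 45196 normalized counts of the X-linked RNA Xist, WT 2 had 835, and no Stat3β TG library had more than 71.6. The summed level of 4 Y-linked genes was 58.8 in WT 1, 71.8 in WT 3, 11012 in WT 2 and 8781 to 9465 in Stat3β TG. WT 1 and WT 3 thus had the pattern of female cells, and WT 2 and all Stat3β TG libraries that of male cells. Where Stat3β TG is set against WT 1 or WT 3, sex and group cannot be told apart. Against WT 1 alone, the log2 fold change was 1.58 for Fpr2 and 1.52 for Fpr1. Against WT 2 alone, the only WT library with the male pattern, it was 1.79 and 2.65. Leaving out each library in turn gave 1.68 to 1.94 for Fpr2 and 1.78 to 2.49 for Fpr1. Stat3 itself was at 8058, 16112 and 10879 normalized counts in WT 1 to 3, with 11129, 9846 and 8034 in Stat3β TG 1 to 3 (limma adjusted p = 0.771), a gene-level value that does not separate the splice forms. Its log2 fold change of -0.23 became 0.034 without WT 2.

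No other member of the receptor family was detected. Fpr3, Fpr-rs3, Fpr-rs4 and Fpr-rs6 were listed at 0 in all 6 libraries, and a count of 0 allows a level of up to 3 reads, or 1.69 to 4.22 normalized counts by library. Fpr-rs7 was not analysed here. How reads that fit several copies were counted is not stated in the labels. The coding sequences of Fpr1 and Fpr2 were 69.8% identical, and their whole transcripts shared 1 stretch of 50 bases. Fpr2 and Fpr3 were 88.2% identical, and 31.5% of the 50-base stretches of Fpr2 transcripts also occurred in other genes, 28.4% in the pseudogene Gm5966 and 6.33% in Fpr3 (GENCODE M21). The level of Fpr2, and the 0 of Fpr3, are therefore less certain than the level of Fpr1, which shared 0.0784% of its stretches.

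Among ligands and enzymes of the formyl peptide system, no gene had an unadjusted p under 0.05 in limma, beside 6.1% of all tested genes (0 passed adjusted either). The 8 tested genes had a median log2 fold change of 0.23, with 6 higher and 2 lower, against 0.01 over all tested genes, of which 51.4% were higher. Anxa1, which encodes the FPR2 agonist annexin A1, was abundant at 13967, 14828 and 23719 normalized counts across WT 1 to 3 and 24298, 25573 and 14176 across Stat3β TG 1 to 3. The groups overlapped, and TG 3 had the lowest Anxa1 of its group, as it had for Fpr1. Camp, the cathelicidin of neutrophil granules, ran from 8497 (WT 2) to 74674 (WT 1) within WT alone, with 39862 to 60099 in Stat3β TG. Ctsg, the granule protease cathepsin G, was at 5220 to 20229 in WT and 9104 to 18111 in Stat3β TG. Hebp1, the source of the peptide F2L, was low at 31.1 to 167 and 91.0 to 186. App, the amyloid precursor, had a log2 fold change of 0.03, and the acute phase gene Saa3 of -0.72 from levels of at most 70.4, while Saa1 and Saa2 were listed at 0 throughout. Mtfmt, which formylates the mitochondrial initiator tRNA, had a log2 fold change of -0.11, and Pdf, which removes the formyl group, of 0.52. The signs for Camp, Ctsg, Hebp1, Saa3, App, Mtfmt and Pdf each changed when 1 or 2 WT libraries were left out.

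Other chemoattractant receptors showed no uniform difference. The median log2 fold change of the 17 tested genes was 0.42. Of these, 13 were higher and 4 lower in Stat3β TG, beside 51.4% higher among all tested genes. C5ar1, the receptor for complement fragment C5a, had 950, 417 and 471 normalized counts in WT against 2158, 1832 and 935 in Stat3β TG. TG 3 lay just below WT 1, so the groups overlapped, and the log2 fold change of 1.43 (SE 0.40) had a limma adjusted p of 0.668. Cxcr4, which holds cells in the bone marrow through CXCL12, was lower without overlap, at 20197 to 24783 against 13750 to 20016 (log2 fold change -0.52, limma adjusted p = 0.668). Gpr84, a receptor for medium-chain fatty acids, was at 943, 218 and 241 against 1258, 973 and 558, and Cx3cr1, the fractalkine receptor of monocytes, ran from 51.4 to 1586 in WT and from 738 to 4013 in Stat3β TG. For both, WT 1 lay within the Stat3β TG range.

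On a per-length scale the formyl peptide receptors stood higher among the 21 chemoattractant receptors listed by the Stat3β TG means than by the WT means. This change of place restates the group difference that chose them, and adds no support. In WT, Fpr2 was in place 9 with 237 ± 40.9 normalized counts per kb of exon and Fpr1 in place 15 with 103 ± 39.8 (SD, n = 3). In Stat3β TG, Fpr2 was in place 5 with 830 ± 61.0 and Fpr1 in place 9 with 450 ± 199. By library, Fpr2 held places 13, 9 and 7 in WT 1 to 3 against 5, 5 and 6 in Stat3β TG 1 to 3, without overlap, while Fpr1 held places 15, 13 and 11 in WT 1 to 3 against 8, 9 and 11 in Stat3β TG 1 to 3, so that WT 3 and TG 3 tied. Cxcr4 headed the order in all 6 libraries, with 8981 ± 1852 in Stat3β TG, followed there by Ltb4r1, a receptor for leukotriene B4, with 5057 ± 1463. The neighbours of Fpr2 in that group, the niacin receptor gene Hcar2 (914 ± 440) and C5ar1 (639 ± 246), did not differ from it beyond their spread, nor did those of Fpr1, the platelet-activating factor receptor gene Ptafr (491 ± 32.1) and Cx3cr1 (423 ± 406). In WT, C5ar1 (238 ± 114) and Ccr2 (214 ± 186) stood on either side of Fpr2 within their spread.

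For signalling genes downstream of the receptors the median log2 fold change was 0.22 over 21 tested genes, 16 of them higher and 5 lower, beside 51.4% higher among all tested genes. An unadjusted p under 0.05 was found for 3, all higher, beside 3.56% of all tested genes. Gnai2, the main inhibitory G protein subunit of leucocytes, was at 31236 to 33676 normalized counts in WT and 34153 to 36149 in Stat3β TG, a log2 fold change of 0.10 (limma adjusted p = 0.815). Pik3r5, the regulatory subunit that couples PI3-kinase gamma to these receptors, had 1807, 1305 and 777 against 2608, 2050 and 2210, without overlap (log2 fold change 0.90, limma adjusted p = 0.668). Fgr, a Src-family kinase gene, was also among the 3 (log2 fold change 0.95), and Plcb3, a phospholipase C gene, had 0.67. Among 10 genes of receptor desensitization, 6 were higher and 4 lower (median 0.11). Arrb2, a beta-arrestin gene, was at 5989 to 8253 in WT and 9187 to 11694 in Stat3β TG (log2 fold change 0.53, limma adjusted p = 0.668). It alone of the 10 had an unadjusted p under 0.05, near the share of 6.1% among all tested genes. Grk5, a receptor kinase gene, overlapped between groups with a log2 fold change of 0.87.

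Genes of the phagocyte NADPH oxidase, the effector of the oxidative burst, were higher in 5 of 5 members (median log2 fold change 0.46), beside 51.4% of all tested genes. Cybb, the catalytic subunit, had 17018, 8297 and 12740 normalized counts in WT against 29968, 17578 and 18773 in Stat3β TG, and Ncf1, a cytosolic organizer, at 31447, 12768 and 24272 against 50178, 38093 and 32484. In both the groups did not overlap, though the gap between WT 1 and the nearest Stat3β TG library was small, and the log2 fold changes of 0.82 and 0.89 had a limma adjusted p of 0.668. Cyba and Ncf4, at 0.32 and 0.46, turned negative against WT 1 alone. Over the 61 tested pathway genes, 46 (75.4%) were higher, beside 51.4% of all tested genes. Of the 61, 8 (13.1%) had an unadjusted limma p under 0.05 beside 6.1%, and 9 (14.8%) did not overlap beside 10.8%. The adjusted limma threshold was passed by 0. The count of 8 was 24 without WT 1, 1 without Stat3β TG 1 and 3 against WT 1 alone. Without WT 1, Gpr84 and Ffar2, a receptor for short-chain fatty acids, passed over all genes (limma adjusted p = 0.0472 and 0.0476), where 346 genes passed in all.

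**Figure D2:**
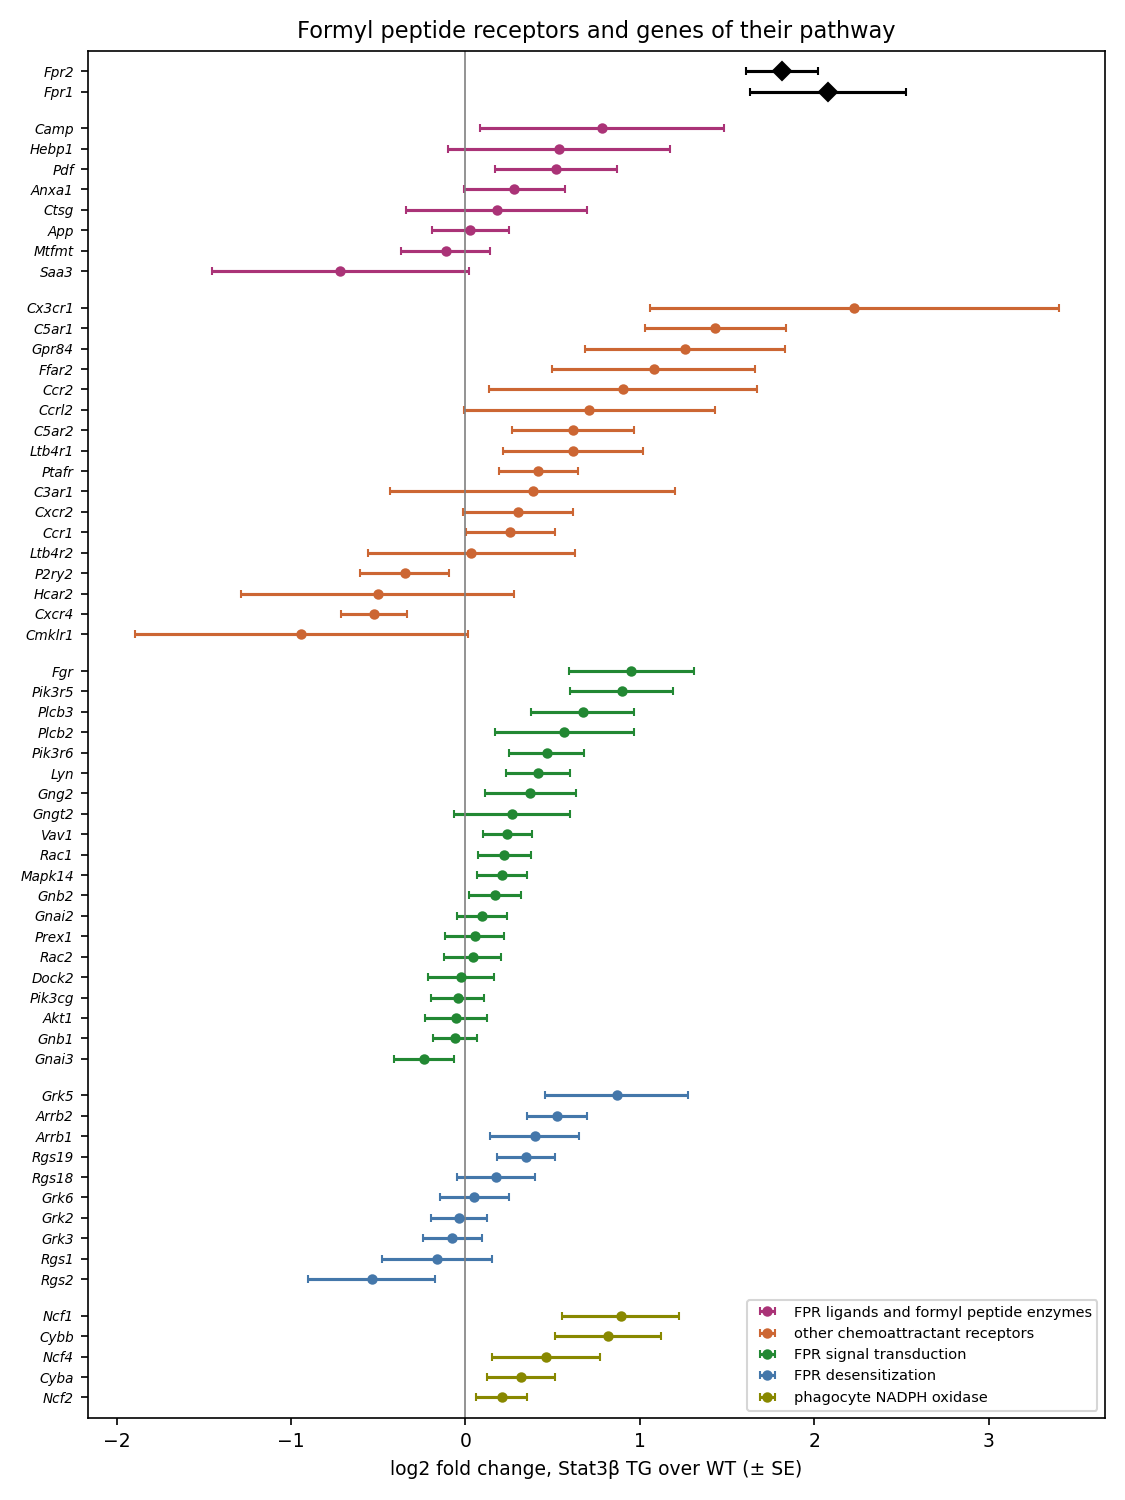
Log2 fold change between the groups (Stat3β TG over WT), with standard error, for Fpr2 and Fpr1 (black) and all but 1 of the 61 tested genes in 5 lists of their pathway (colours). The receptors stand at 1.82 and 2.08, Cx3cr1 has a higher estimate with a wide error (2.23, SE 1.17), and most other genes lie between -1 and 1.

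Genes listed as markers of mature neutrophils, cells that carry both receptors, were mostly higher along with them. The list does not separate stages of neutrophil maturation. Of 23 tested markers 22 were higher (median log2 fold change 0.96), beside 51.4% of all tested genes. An unadjusted p under 0.05 was found for 12, all higher, beside 3.56% of all tested genes, a count that was 6 without Stat3β TG 1 and 7 against WT 1 alone. Of the 23, 9 did not overlap with Stat3β TG higher, beside 5.87%. None passed the adjusted threshold in limma. Their summed level was 268516 to 602002 normalized counts in WT and 627310 to 1080649 in Stat3β TG. Cd177, a neutrophil surface protein gene, was at 2856 to 4837 against 8205 to 16218, and the collagenase gene Mmp8 at 1291 to 2450 against 2862 to 4361. The 1 lower marker, Il1r2, ran from 138 to 3030 in WT and from 313 to 717 in Stat3β TG (log2 fold change -0.59). In bulk RNA, more cells of a type and more RNA per cell cannot be told apart, and the part of these cells in the receptor levels was not tested.

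Fpr1 was ordered over the libraries as this marker list was, and Fpr2 only in part. The receptors were chosen as higher in Stat3β TG and the list was higher there too. Only the order within each group was therefore free to differ. The mean log2 level of the 23 markers, from low to high, was 11.64 in WT 2, 12.35 in WT 3, 12.57 in WT 1, 12.75 in TG 3, 13.11 in TG 2 and 13.55 in TG 1, and the Fpr1 values took the same order in 6 of 6 places. The Fpr2 values matched it in 2 of 6, since WT 2 and WT 3, and TG 2 and TG 3, were swapped, and the counting intervals overlapped within each of these pairs. Whether the receptors differ in this was not tested. In WT 1 and TG 3, adjacent in that order and on either side of the group boundary, Fpr1 differed 1.62-fold and Fpr2 2.93-fold. Set against the list mean within each library, Fpr1 lay at -4.98, -5.18 and -5.31 log2 units in WT, with -3.85, -3.77 and -4.46 in Stat3β TG, without overlap. For Fpr2 these were -4.08, -3.36 and -4.36 in WT, with -3.36, -3.12 and -2.70 in Stat3β TG, where WT 2 and TG 1 met. The list mean differed by 0.95 log2 units between groups, less than either receptor. What remains after subtraction, and the folds between WT 1 and TG 3, restate the contrast that chose the receptors and add no support.

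**Figure D3:**
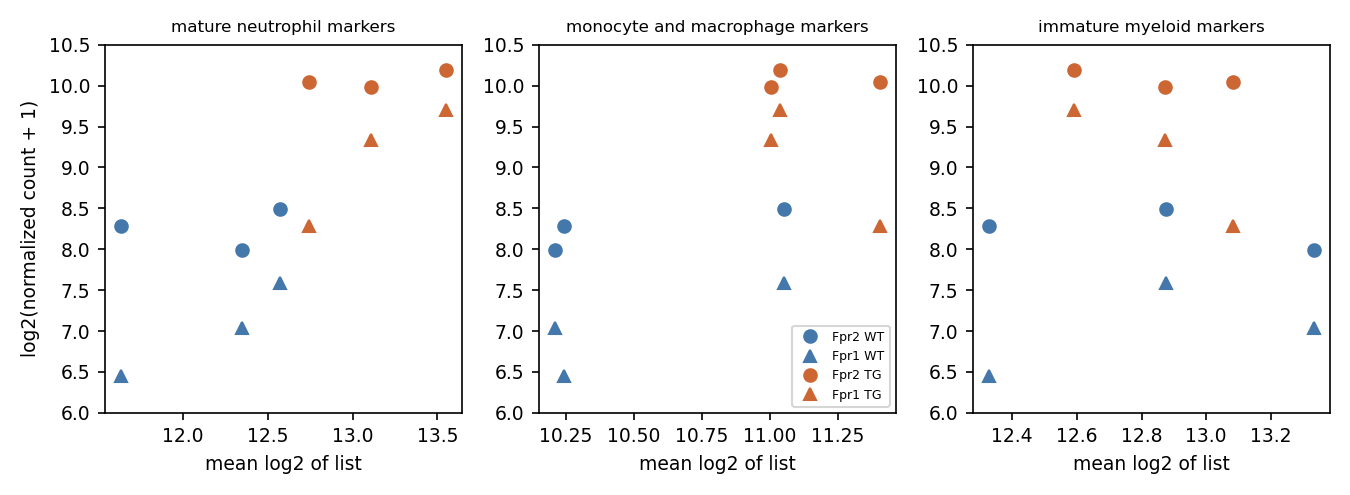
Log2 level of Fpr2 (circles) and Fpr1 (triangles) in each WT (blue) and Stat3β TG (orange) library against the mean log2 level of 23 mature neutrophil, 17 monocyte and macrophage and 12 immature myeloid markers. In the left panel Fpr1 climbs with the list from WT 2 (11.64) to TG 1 (13.55), while Fpr2 has a low WT and a high Stat3β TG level with less spread within each.

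Monocyte and macrophage markers were higher in 13 of 17 tested genes (median log2 fold change 0.63), beside 51.4% of all tested genes. Of the 17, 3 higher and 1 lower had an unadjusted limma p under 0.05, beside 3.56% and 2.54%. That count of 4 was 11 without WT 1 and 1 without WT 3. Their summed level was 88749 to 104355 normalized counts in WT and 114063 to 184290 in Stat3β TG. This separation rested on the abundant lysozyme gene Lyz2, without which the sums overlapped. The mean log2 level of the list overlapped too, at 11.05 in WT 1 against 11.04 in TG 1 and 11.00 in TG 2. The integrin gene Itgax was at 65.0 to 126 against 143 to 454, and Lyz2 at 9053 to 21411 against 18520 to 63549. Among the 4 lower markers, Ly6c2 was at 23431 to 34497 against 19883 to 23995 (log2 fold change -0.34). Klf4 and Cd68 were also among these, with log2 fold changes of -0.30 and -0.04. The highest Stat3β TG sum was that of TG 3, the library with the lowest Fpr1 of its group. Immature myeloid markers were higher in 6 and lower in 6 of 12, with summed levels of 143006 to 217591 and 147904 to 231080 that overlapped. Cd34, a marker of progenitors, was at 8029 to 8291 in WT and 3726, 4999 and 8056 in Stat3β TG 1 to 3. Among other lineages, T and NK markers were higher in 5 of 5 tested genes (median log2 fold change 1.12), beside 51.4% of all tested genes. Of these 5, 0 had an unadjusted p under 0.05 in limma, beside 6.1%, and the highest T and NK sum was that of WT 1. Most of that sum was Nkg7, a granule gene of cytotoxic lymphocytes, with normalized counts of 1415, 103 and 442 in WT libraries against 878, 793 and 622 in Stat3β TG, while Cd3e was at 0 in all libraries and Cd3g had at most 40 reads. Of B cell markers Ms4a1 stayed under 3 reads per library but Cd79b had 893 to 3651, and of mast cell markers Fcer1a and Tpsb2 stayed under 3 but Cpa3 had 374 to 6625. The summed eosinophil markers were 9770 to 51426 in WT and 6515 to 12041 in Stat3β TG. Of the 5 tested, 3 were lower and 2 higher, beside 51.4% higher among all tested genes. Prg2, most of that sum, was at 8375 to 36893 in WT and 4024 to 7055 in Stat3β TG (log2 fold change -2.08, limma adjusted p = 0.668). It alone of the 5 had an unadjusted limma p under 0.05, beside 2.54% lower among all tested genes. Erythroid markers summed to at most 278 and T and NK markers to at most 1591, both in WT, megakaryocyte markers to 804 to 2529 and stromal and endothelial ones to 3066 to 5358 over all libraries. Basophil and mast cell markers summed to 1065 to 4411 and B cell markers to 1197 to 2070. The part of these cells in the receptor levels was not tested.

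The gene pair stood in a stretch of chromosome 17 with few expressed genes. Of 21 other genes of the table within 1000 kb on either side, 13 were at 0 in all libraries and 4 were tested. The nearest tested gene, Lnpep, which encodes an aminopeptidase, lay 252 kb away and had 2976, 7272 and 4555 normalized counts in WT against 4546, 2662 and 2820 in Stat3β TG, with a log2 fold change of -0.51. Of the 10 nearest tested genes, 5 on each side, 5 were higher and 5 lower. Only 4 of these 10 lay within 1000 kb, and the farthest was 3529 kb away. In limma 0 of them passed the adjusted threshold and 0 had an unadjusted p under 0.05, beside 6.1% of all tested genes. The smallest p was that of the zinc finger gene Zfp160, at 237 to 737 against 597 to 937 (log2 fold change 0.91, limma adjusted p = 0.668).

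Over the 6 libraries, the genes most like each receptor were ranked by the root-mean-square difference of log2 profiles centred on each gene's mean, among 10971 genes with a mean of at least 50 normalized counts. C5ar1 was most like Fpr1, at a difference of 0.36, and was another chemoattractant receptor. It was followed by Cstdc6 (0.39) and Stfa2 (0.40), members of the stefin and cystatin family whose near-identical copies make their values uncertain, then Ifnlr1, the type III interferon receptor gene (0.45), Il18r1, a chain of the interleukin 18 receptor (0.45), and Cd177 (0.46). Among the 6 most like Fpr2 were Il18r1 (0.24), Ifnlr1 (0.28), the endocytic scaffold gene Itsn1 (0.35), Cd177 (0.38) and the zinc finger factor Zeb1 (0.40). Il18r1 was a gene of low level, with 40.3, 28.4 and 18.3 normalized counts in WT against 111, 110 and 75.8 in Stat3β TG. The receptors were not each other's closest match, at a difference of 0.52 that put Fpr2 in place 14 for Fpr1 and Fpr1 in place 43 for Fpr2. Since the measure includes the difference between groups that chose the receptors, genes with a like difference had to rank high, and the ranking is a description of these libraries only.

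**Figure D4:**
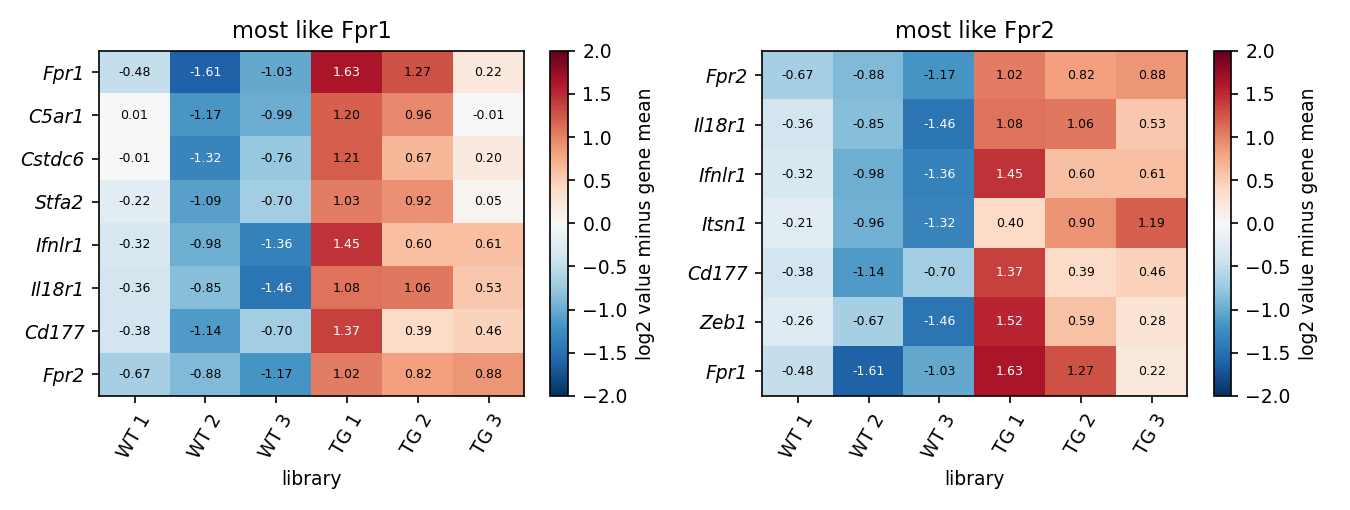
Log2 level in each library minus the gene's mean over the 6 libraries, for Fpr1 (left) and Fpr2 (right), genes among the 6 of most similar profile to each, and the other receptor. Red is above and blue below the gene's mean. Fpr1 and C5ar1 have their lowest Stat3β TG value in TG 3 (311 and 935 normalized counts), whereas Fpr2 is even over the 3 Stat3β TG libraries.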

How the data were processed

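RNA was sequenced from 6 samples of sorted mouse blasts, 3 WT and 3 Stat3β TG, grouped and numbered by their titles. FastQC, STAR and DESeq2 with the build GRCm38 (mm10) are listed in the submitters' processing notes; their versions, the gene counter, strand handling and filters are not stated there or in the labels. The authors deposited normalized counts per gene, treated here as a signal without negative values. In each library 100% of values were whole multiples (within 0.001) of 1 step, taken as the worth of 1 read, which gave 21809788 to 51934498 reads per library. Symbols (24376 of 24454) and promoters came from RefSeq GRCm38.p6, and exon lengths from GENCODE M21, which may differ from the annotation the authors counted on.

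The members and gene lists were chosen with earlier results of these data known. Genes with at least 10 normalized counts in 3 libraries (12642) were fitted as log2(normalized count + 1) with limma 3.58.1 (trend, robust, two-sided, Benjamini-Hochberg over all tested genes, threshold 0.05) in R 4.3.3, on group alone. The fit was tested on simulated data. Fold changes of Fpr1 and Fpr2 come from this fit, without p. Alternatives were other pseudocounts, filters and scalings, edgeR 4.0.16 and DESeq2 1.42.0 on the recovered reads, a replicate block and fewer libraries. Genes were named by rule: the receptor family, all ligand genes, up to 4 members with the smallest p of each other list, tested neighbours within 1000 kb and that with the smallest p, and the 6 most similar profiles per receptor. Gnai2, Ffar2, Rgs2, Ltb4r1, Hcar2, Ptafr, Ccr2, Il1r2, Prg2, Xist, and the lymphocyte and mast cell markers were named after their values were seen. Some genes the rule names are not reported here.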

Additional observations from a re-analysis of the deposited data

How the results depend on the processing

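Fpr1 and Fpr2 kept the same direction under all 17 alternatives. The log2 fold change of Fpr2 moved by more than its spread within groups (SD 0.19) only without both WT 2 and WT 3 (1.58). That of Fpr1 ranged more widely, from 1.52 without both WT 2 and WT 3 to 2.65 without both WT 1 and WT 3. These shifts stayed within the larger spread of Fpr1 (SD 0.66). The group difference in the log2 ratio of Fpr2 to Fpr1 changed sign without WT 2 and without both WT 2 and WT 3 (0.059), and ran from -0.66 to 0.037 with 1 library left out. Genes passing were 17 by DESeq2, 9 without both WT 2 and WT 3, 740 without both WT 1 and WT 3, and 0 to 346 with 1 library left out (346 without WT 1, 5 without WT 2). Pathway genes passing the adjusted threshold were 5 without both WT 1 and WT 3 (among them Camp, Ncf1 and Ffar2 higher, Rgs2 lower) and 0 to 2 with 1 library left out. Pathway genes at an unadjusted p under 0.05 were 3 and 25 without these pairs and 1 to 24 with 1 library left out. With 1 library left out, this count ran from 6 to 17 for neutrophil, 1 to 11 for monocyte and 0 to 2 for immature myeloid markers. Of the chromosome 17 neighbours, 1 (Zfp160) passed without both WT 1 and WT 3. Among 49 named genes, 15 changed sign under some alternative. Without both WT 2 and WT 3 the log2 fold changes were 0.25 for Stat3, -0.55 for Camp, -0.42 for Hebp1, 0.43 for Saa3, 0.23 for Mtfmt, -0.25 for Pdf, -0.098 for Gpr84, -0.16 for Cx3cr1, -0.050 for Cyba, -0.12 for Ncf4 and 0.12 for Lnpep. Without both WT 1 and WT 3 they were -0.36 for Ctsg, -0.36 for App, -0.49 for Zfp97 and -0.15 for Vmn2r96. App was at -0.0043 by edgeR and -0.0052 by DESeq2. With 1 library left out, ranges that crossed 0 were -0.47 to 0.034 for Stat3, -0.12 to 1.45 for Camp, -0.44 to 0.53 for Ctsg, -0.17 to 1.02 for Hebp1, -0.17 to 0.22 for App, -0.28 to 0.13 for Mtfmt and -0.13 to 0.35 for Zfp97. Replicate numbers pair no samples by the labels, and deviations of same-numbered libraries correlated at 0.14, 0.10 and -0.11. With a replicate block 0 genes passed, and 12 pathway genes had an unadjusted p under 0.05 beside 8 without it. The causes were not tested.

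Read depth limits the family members at 0 and genes under 50 normalized counts more than Fpr1 and Fpr2. The sign of a gene without a call should be read with these ranges, since 3 libraries per group allow no exact permutation p under 0.1.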
